A study of Mus musculus with 2 samples.

Results

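The pentose phosphate pathway and the cytosolic enzymes that make NADPH were followed through 9 genes. These were chosen by name for the reaction each enzyme carries out and not by any measured value, though earlier results of these data were known. They were G6pdx, Pgls and Pgd of the oxidative branch, Rpia, Rpe, Tkt and Taldo1 of the non-oxidative branch, and the cytosolic NADPH enzymes Me1 and Idh1. All 9 were found among the 35275 genes of the deposited table, and all 9 had more than the 10 reads over both libraries that were needed for a ratio, as 14383 genes did. The cells were AML12, a mouse hepatocyte line of strain CD-1 listed as liver of a male aged 3 months, which was established from a mouse carrying a transgene for human transforming growth factor alpha. Control cells were untreated, and senescent cells received hydrogen peroxide (H2O2) for 1 h per day on 6 days, with 1 mM on the first day, 0.75 mM on the later days and 23 h to recover each time. In both conditions the RNA of 3 samples was pooled into 1 RNAseq library, so no comparison here has a replicate and no p-value was computed.

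The pentose phosphate pathway branches off glycolysis at glucose 6-phosphate. Its oxidative branch gives NADPH, the reducing power for glutathione recycling, thioredoxin and lipid synthesis, together with ribulose 5-phosphate. The reversible non-oxidative branch interconverts that sugar with ribose 5-phosphate for nucleotides and with intermediates of glycolysis. Malic enzyme and isocitrate dehydrogenase add NADPH in the cytosol, and in hepatocytes the pathway is known for its part in lipogenesis and in the defence against peroxides.

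Across the 9 genes the senescent library held higher transcript levels of Rpia (1.93-fold), Pgd (1.69-fold), Me1 (1.43-fold) and G6pdx (1.24-fold), and a lower level of Idh1 (0.732-fold). Pgls was 1.09-fold higher. Rpe, Tkt and Taldo1 lay between 0.947-fold and 0.982-fold of the control. None of the 9 genes reached a log2 ratio of 1.5 in either direction. Over all genes tested, 2.71% were called higher and 5.6% lower at that threshold.

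The control library held 28021941 counted reads and the senescent library 25738075. A log2 ratio is the log2 of the senescent over the control count after scaling of library sizes by the TMM method, with a prior count of 1. Its brackets give the 95% Clopper-Pearson interval, which covers counting error only, since reads amplified by PCR without molecular identifiers are not independent molecules and the spread between cultures was not measured. Levels are given as TPM, a unit of transcript abundance, which is the reads per base of exon scaled to the same sum in both libraries, with an exact Poisson interval of the same kind. TPM carries no TMM factor, so the change between the levels of a gene can differ from its log2 ratio. The median log2 ratio of all genes tested was −0.02, with quartiles at −0.48 and 0.35. Of 12 hepatocyte markers, 5 had an interval above 0, 5 below and 2 holding 0. Apob, Hnf4a, Krt8 and Krt18 were among the higher ones. The lower ones were Alb, the gene of albumin, with 32076 control and 2917 senescent reads, Apoa1 with 2026 and 197, Ttr with 23146 and 10486, Serpina1a with 102 and 32 and Serpina1b with 262 and 113, while Trf (26 and 17 reads) and Fgb (16 and 14 reads) were scarce in both libraries. The 7 macrophage and blood cell markers summed to 79 control and 159 senescent reads, with Adgre1 and Clec4f at 0 in both. Ptprc (27 and 76 reads) and Csf1r (15 and 40 reads) had log2 ratios of 1.68 [1.07, 2.41] and 1.58 [0.76, 2.61]. Cd68 (34 and 40 reads) had an interval that held 0, and Lyz2 and Itgam had fewer than 10 reads. The 8 fibroblast and stellate markers summed to 27 and 9 reads, with Col1a2, Col3a1 and Lum at 0 in both, and the 5 endothelial markers to 6 and 13 reads. The 6 cholangiocyte markers summed to 55209 and 35414 reads, most of them from Spp1 and Krt19, with Epcam at 0 and 1 read. Spp1 (25430 and 10580 reads) and Krt7 (3248 and 1026) had intervals below 0. Sox9 (3602 and 4454) and Cftr (44 and 176) had intervals above 0, and that of Krt19 (22885 and 19177) held 0. The part of these 6 markers in the results was not tested. In these pooled bulk libraries, fewer cells with a transcript and less of it per cell cannot be told apart.

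The promoters of the genes are shown first, because some hold letters that match the binding motif of a regulator of NADPH genes. RefSeq start sites on GRCm38.p6 gave 12 windows for the 9 genes, each with 250 bases before and 50 after the start. The antioxidant response element core TGACNNNGC, which NRF2 with a small MAF protein binds, was searched on both strands and had a match in 3 of the 9 genes. A match was also found for 14% of 27025 genes and in 12.4% of all 32851 windows. The E-box CACGTG, which MYC and the carbohydrate-response factor ChREBP can bind, had no match in any window of the 9 genes and a match in 7.15% of all windows. A match describes letters and does not show binding. Each site below is written 5′ to 3′ on the strand of its gene as 30 bases, with the match in capitals.
Pgd (chr4:149166060-149166089, minus strand, bases 4 to 12 from the downstream of its start sites): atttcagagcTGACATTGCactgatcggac
Me1 (chr9:86695901-86695930, minus strand, bases −6 to 3 from the start): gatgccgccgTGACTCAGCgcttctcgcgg
G6pdx (chrX:74428918-74428947, minus strand, bases −57 to −49, the motif lying on the opposite strand): aggcgggtcaGCTCAGTCAaagcacacgcc

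Pgd, Me1 and G6pdx, the genes with a match, were the NADPH-making enzymes whose levels were higher in the senescent library, and Idh1, the NADPH maker with a lower level, had no match in either of its windows. Rpia, with the highest ratio, had none either. This is a description over 9 genes, and no test was made of it. GENCODE exons cover all 30 bases of the Me1 and G6pdx sites and 23 of those of the Pgd site.

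The stretches before the start site that no annotated exon covers are shown for Rpia and Pgd, the genes with the highest ratios, and for Idh1, the gene with the lowest. None of the 3 held either motif. They are written 5′ to 3′ on the minus strand, on which all of these genes lie, and capitals mark each CG dinucleotide.
Rpia (chr6:70792233-70792425): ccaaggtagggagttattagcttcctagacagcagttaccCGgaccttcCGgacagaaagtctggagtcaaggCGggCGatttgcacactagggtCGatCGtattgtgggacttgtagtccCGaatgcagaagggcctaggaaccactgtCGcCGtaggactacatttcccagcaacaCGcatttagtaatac
Pgd (chr4:149166772-149166955): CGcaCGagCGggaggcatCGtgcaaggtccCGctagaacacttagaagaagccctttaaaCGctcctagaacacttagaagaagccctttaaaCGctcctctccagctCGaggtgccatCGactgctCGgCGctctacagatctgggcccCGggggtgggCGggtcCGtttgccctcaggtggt
Idh1 (chr1:65186501-65186682): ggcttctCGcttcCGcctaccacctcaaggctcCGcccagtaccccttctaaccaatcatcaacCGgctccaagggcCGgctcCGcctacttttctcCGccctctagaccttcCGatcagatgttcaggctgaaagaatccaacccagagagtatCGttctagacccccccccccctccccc

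CG dinucleotides numbered 10 in the 193 bases of Rpia, 14 in the 184 bases of Pgd and 9 in the 182 bases of Idh1. The 12 full windows of the 9 genes had a median of 22.5 CG dinucleotides and 60.7% G and C, against medians of 7 and 52.7% over all windows. At least 10 CG dinucleotides were present in 83.3% of the windows of these genes and in 43.5% of all windows. All windows include those of genes with too few reads for a ratio. No comparison with expressed genes alone was made, so these values do not set the 9 genes apart from them.

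Each of the 3 genes of the oxidative branch had a log2 ratio above 0, with unequal sizes. The interval of Pgls held 0 under total-count and upper-quartile scaling. Pgd, 6-phosphogluconate dehydrogenase, which makes the second NADPH of the branch, lies on GRCm38 at chr4:149149991-149166771 on the minus strand. It had 4668 control and 6717 senescent reads, or 81.6 TPM (79.3 to 84.0) and 132 TPM (129 to 135). The 2 intervals did not overlap, and the log2 ratio was 0.75 [0.70, 0.81]. That ratio exceeded those of 90.3% of all genes tested.

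G6pdx, the X-linked glucose-6-phosphate dehydrogenase that makes the first NADPH and commits glucose to the pathway, lies at chrX:74409483-74429194 on the minus strand. It had 1440 control and 1521 senescent reads, or 52.7 TPM (interval up to 55.5) and 62.5 TPM (interval from 59.4), and a log2 ratio of 0.31 [0.20, 0.41]. The senescent level was the higher by more than counting error, and by less than that of Pgd. The difference between the log2 ratios of Pgd and G6pdx, which does not depend on the scaling of the libraries, was 0.45 [0.33, 0.56]. The TPM of Pgd was 1.55 times that of G6pdx in control cells and 2.11 times in senescent cells. That ratio of levels depended on the gene length, at 3.88 and 5.28 times with the longest protein-coding transcript and 3.24 and 4.42 times without a length (CPM).

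Pgls, 6-phosphogluconolactonase, which opens the lactone ring between these dehydrogenases, lies at chr8:71592176-71601092 on the plus strand. Its 1731 control and 1607 senescent reads gave 51.7 TPM (49.3 to 54.2) and 54.0 TPM (51.4 to 56.7), and the 2 intervals of level overlapped. Its log2 ratio was 0.12 [0.02, 0.22], the smallest of the branch. Under scaling by total counts this ratio was 0.015, so its distance from 0 depended on the scaling.

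**Figure D1:**
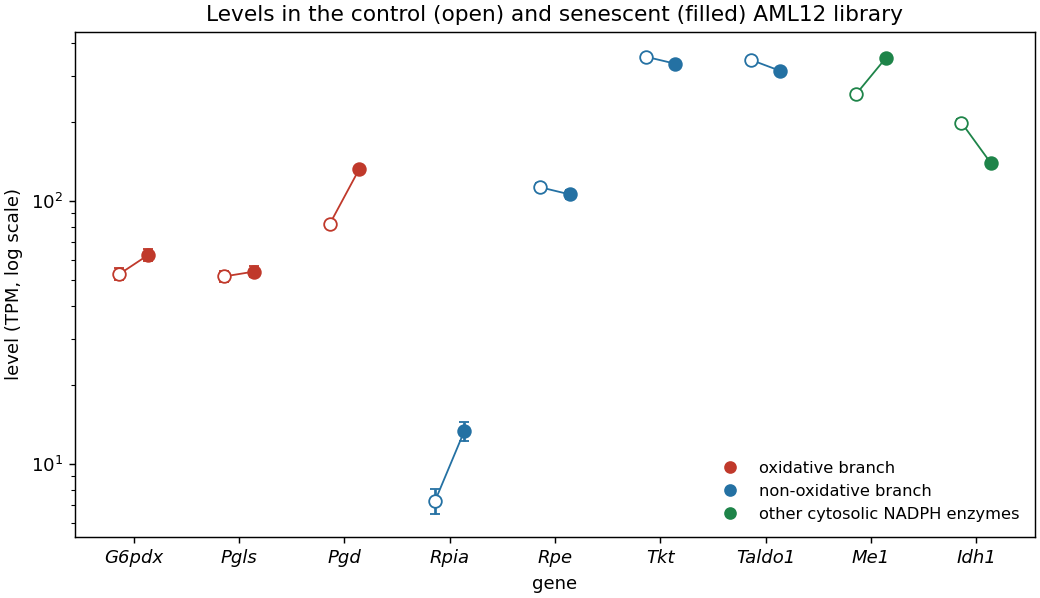
Level of each of the 9 genes in the control library (open circles) and the senescent library (filled circles), in TPM on a log axis, with exact Poisson intervals that are narrower than the symbol for most genes. Pgd lay at 81.6 and 132 TPM and Rpia at 7.23 and 13.4 TPM, while Tkt lay at 354 and 333 TPM.

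In the non-oxidative branch 1 gene stood apart from the other 3. Rpia, ribose 5-phosphate isomerase, which makes ribose 5-phosphate from ribulose 5-phosphate, lies at chr6:70765720-70792232 on the minus strand. It had 344 control and 567 senescent reads, or 7.23 TPM (6.49 to 8.04) and 13.4 TPM (12.3 to 14.5). Its log2 ratio of 0.95 [0.75, 1.15] was the highest of the 9 genes and exceeded those of 93.6% of all genes tested. Its level was the lowest of the 9 genes in both libraries, with 33.4% of genes tested lower in the control and 47.0% in senescent cells.

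Rpe, ribulose-phosphate 3-epimerase, which makes xylulose 5-phosphate from the same substrate, lies at chr1:66700831-66719805 on the plus strand. It had 3119 control and 2608 senescent reads, or 113 TPM (109 to 117) and 106 TPM (102 to 110). Its log2 ratio was −0.03 [−0.10, 0.05], an interval that held 0. The log2 ratio of Rpia was 0.98 [0.77, 1.19] above that of Rpe, so the transcripts of the enzymes that share ribulose 5-phosphate as substrate differed in ratio. Rpe shares exon bases with a neighbour, Kansl1l, as given below.

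Tkt, transketolase, which moves units of 2 carbons between sugars, lies at chr14:30548359-30574720 on the plus strand. Its 23092 control and 19335 senescent reads were the most of the 9 genes, at 354 TPM (349 to 358) and 333 TPM (328 to 338). Its log2 ratio was −0.03 [−0.05, 0.0011]. That interval, after TMM scaling, held 0, while the intervals of level, which carry no TMM factor, did not overlap. Taldo1, transaldolase, which moves units of 3 carbons, lies at chr7:141392199-141402968 on the plus strand. It had 6629 control and 5356 senescent reads, or 344 TPM (336 to 352) and 312 TPM (304 to 321), and a log2 ratio of −0.08 [−0.13, −0.03]. The ratios of Tkt, Rpe and Taldo1 could not be told apart by counting: Tkt minus Taldo1 was 0.05 [−0.01, 0.11], Rpe minus Taldo1 0.05 [−0.04, 0.14] and Tkt minus Rpe 0.0020 [−0.08, 0.08].

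The 2 other cytosolic NADPH enzymes lay on opposite sides of 0. Me1, cytosolic malic enzyme, which makes NADPH while turning malate into pyruvate, lies at chr9:86581371-86695953 on the minus strand. It had 8712 control and 10608 senescent reads, or 255 TPM (250 to 261) and 349 TPM (342 to 356), and a log2 ratio of 0.51 [0.47, 0.55]. Idh1, cytosolic isocitrate dehydrogenase, which makes NADPH while turning isocitrate into 2-oxoglutarate, lies at chr1:65158616-65186500 on the minus strand. It had 4883 control and 3047 senescent reads, or 199 TPM (193 to 204) and 139 TPM (134 to 144), and a log2 ratio of −0.45 [−0.52, −0.39]. The log2 ratio of Me1 was 0.96 [0.89, 1.04] above that of Idh1. Idh1 had the lowest ratio of the 9 genes, and 26.1% of all genes tested had a lower one.

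**Figure D2:**
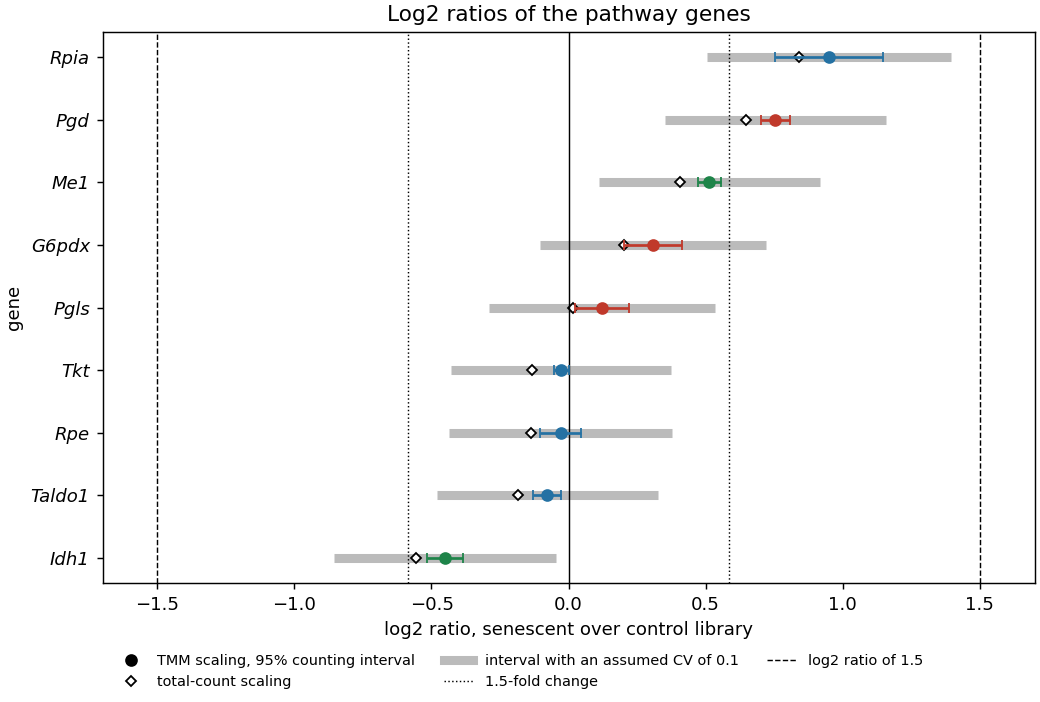
Log2 ratio of senescent over control for the 9 genes in order, with TMM scaling and its 95% counting interval (coloured circles and bars, red for the oxidative branch, blue for the non-oxidative branch, green for Me1 and Idh1), total-count scaling (open diamonds) and the interval under an assumed coefficient of variation of 0.1 between cultures (grey bars). Rpia and Pgd lie beyond the dotted line of a 1.5-fold change, and no gene reaches the dashed lines at a log2 ratio of 1.5.

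Counted over the 9 genes, 5 had an interval above 0 (Rpia, Pgd, Me1, G6pdx and Pgls), 2 had one below 0 (Taldo1 and Idh1) and 2 had one that held 0 (Rpe and Tkt). Over all genes tested, 34.0% of intervals lay above 0 and 34.6% below. Under total-count scaling the tally was 4 above, 4 below (Rpe and Tkt added) and 1 that held 0 (Pgls). Under upper-quartile scaling it was 4, 3 and 2, and under DESeq2 scaling 5, 3 and 1, with Tkt below 0 in both. At a 2-fold change 0 of the 9 genes were called, against 5.09% of all genes tested called higher and 9.98% called lower. At a 1.5-fold change 2 of the 9 genes, Rpia and Pgd, were called higher, against 12% of all genes tested, and 0 were called lower, against 18%. The median log2 ratio of the 9 genes was 0.12, beside −0.02 for all genes tested. Where a coefficient of variation of 0.1 between cultures was assumed, the intervals of 4 genes left out 0, those of Pgd (0.35 to 1.16), Rpia (0.51 to 1.39), Me1 (0.11 to 0.92) and Idh1 (−0.86 to −0.05). At an assumed coefficient of variation of 0.4, 0 did.

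The order of the ratios was Rpia, Pgd, Me1, G6pdx, Pgls, Tkt, Rpe, Taldo1 and Idh1. Of the 36 pairs of these genes, 32 had a difference of log2 ratios whose interval left out 0. The top pair in the order, Rpia and Pgd, did not differ beyond counting error, with 0.20 [−0.01, 0.40]. The next steps down were 0.24 [0.17, 0.31] from Pgd to Me1, 0.21 [0.09, 0.32] from Me1 to G6pdx, 0.19 [0.04, 0.33] from G6pdx to Pgls and 0.15 [0.05, 0.25] from Pgls to Tkt. The last step, from Taldo1 to Idh1, was 0.37 [0.29, 0.46]. From the highest to the lowest, Rpia to Idh1, the distance was 1.40 [1.19, 1.61].

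**Figure D3:**
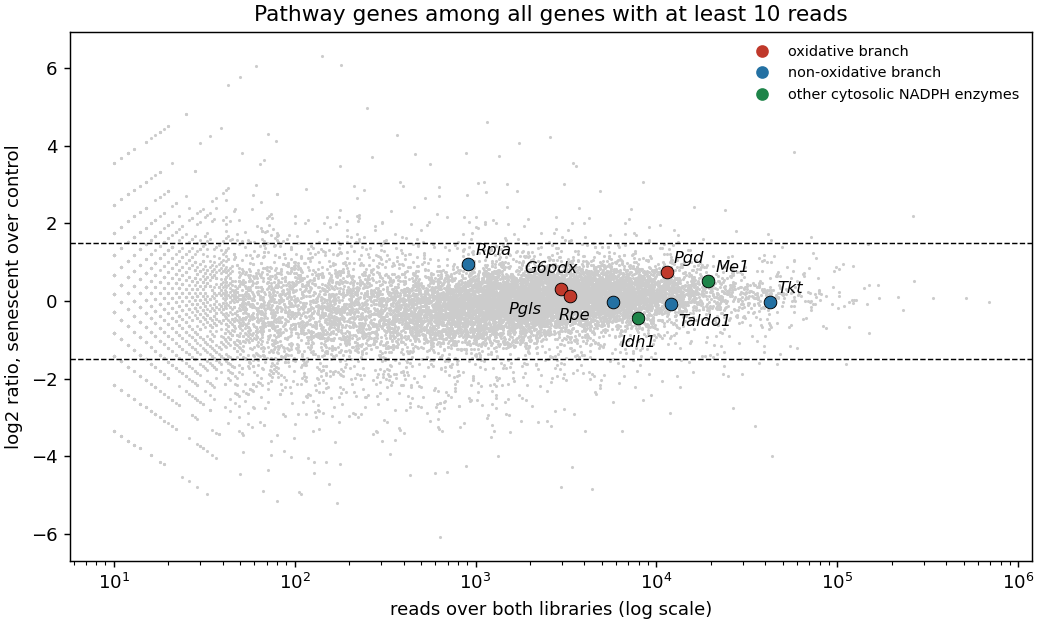
Log2 ratio of senescent over control against the reads over both libraries (log axis) for all 14383 genes tested (grey points), with the 9 genes in the colours of their group and dashed lines at a log2 ratio of 1.5 in either direction. The 9 genes lie inside the lines, from 911 reads for Rpia to 42427 for Tkt, and Rpia and Pgd are the highest of them.

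The levels per length ranked Tkt, Taldo1, Me1, Idh1, Rpe, Pgd, G6pdx, Pgls and Rpia from high to low in the control library. In the senescent library Me1 stood first, ahead of Tkt and Taldo1, and Pgd stood ahead of Rpe. The intervals of G6pdx and Pgls overlapped in the control library, as did those of Tkt and Taldo1. This order depended on the gene length used. With the longest protein-coding transcript in place of the union of exons, Tkt stood first in both libraries, at 560 and 528 TPM, and Taldo1 second in both.

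Summed by branch, the 3 oxidative genes held 186 TPM in control cells and 248 TPM in senescent cells, and the 4 non-oxidative genes 818 and 765 TPM. The oxidative genes thus made up 18.5% of the TPM of both branches in control cells and 24.5% in senescent cells. With the longest protein-coding transcript as length these shares were 24.2% and 31.3%. Among the 4 NADPH-making enzymes, which summed to 588 and 683 TPM, Me1 held 43.4% in control cells and 51.1% in senescent cells and Pgd 13.9% and 19.3%. Idh1 held 33.8% and 20.4%, and the share of G6pdx was 8.96% and 9.16%. With the transcript as length, Me1 held 35.7% and 39.5%, Pgd 28.4% and 37.2%, Idh1 28.6% and 16.2% and G6pdx 7.32% and 7.04%, so the size of the Me1 and Pgd shares and the direction for G6pdx depended on the length. A share of TPM is a share of transcripts and not of enzyme or of NADPH made.

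Several of these genes share exon bases with a neighbour, and the use of strand in counting is not given in the sources used here, so reads in shared bases cannot be told apart. The neighbours named here were chosen after their values were seen. Rpe shares 558 exon bases (17.9% of its exon length) with Kansl1l on the opposite strand, and Kansl1l had 1055 control reads, 178 senescent reads and a log2 ratio of −2.33 [−2.58, −2.11]. G6pdx shares 418 exon bases (13.6%) with Ikbkg on the opposite strand, which had 4702 and 4194 reads and a log2 ratio of 0.06 [0.0043, 0.13]. Pgls shares 776 exon bases (20.6%) with Fam129c on the same strand, which had 204 and 203 reads. Me1 shares 30 exon bases with the antisense gene A330041J22Rik, which had 109 and 149 reads. The part of these neighbours in the ratios was not tested.

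Near-identical copies were found for Me1 alone at 95% identity or more over at least 100 bases, leaving aside the overlapping neighbours. The processed pseudogene Gm7049 matches 49.8% of its longest coding transcript and the non-coding gene Gm48795 35.2%, and neither is listed in the table. The pseudogene Gm7329 matches 6.38% and had 3 control and 4 senescent reads. The value of Me1 is therefore uncertain as far as the counting split or dropped reads that fit several places.

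The isoenzymes in other compartments and the paralogs had ratios below 0 where they could be measured. Of 7 such genes 4 had at least 10 reads, with 3 intervals below 0 and 1 that held 0. Over all genes tested, 34.6% of intervals lay below 0. The median of these genes was −0.48, beside −0.02 for all genes. H6pd, the dehydrogenase that starts an oxidative branch within the endoplasmic reticulum, had 15586 control and 9838 senescent reads and a log2 ratio of −0.43 [−0.47, −0.40]. At 335 TPM in control cells and 238 TPM in senescent cells, it lay above G6pdx in both. Idh2, the mitochondrial isocitrate dehydrogenase, had 7553 and 4450 reads and a log2 ratio of −0.53 [−0.59, −0.48]. Me2, a mitochondrial malic enzyme, had 1409 and 912 reads and a log2 ratio of −0.40 [−0.52, −0.28]. Me3, another mitochondrial malic enzyme, had 31 and 15 reads, with a log2 ratio of −0.78 [−1.81, 0.12] that counting could not tell from 0.

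Paralogs of G6pdx and Tkt were at or near 0. G6pd2, an intronless paralog of G6pdx with 93.1% identity to it over 2331 aligned bases, had 0 reads in both libraries. The upper Poisson limits of its level were 0.177 TPM in control cells and 0.199 TPM in senescent cells. Tktl2 had 0 reads in both, and Tktl1 had 0 control and 2 senescent reads, so no ratio is given.

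Other genes around the supply of NADPH and NADP, not all of which make NADPH, lay on both sides of 0. Of 9 genes tested, 3 intervals lay above 0 and 3 below, beside 34.0% and 34.6% of all genes tested. The median log2 ratio was −0.02, beside −0.02 for all genes tested. Mthfd2, a mitochondrial folate dehydrogenase, had 893 control and 3333 senescent reads and a log2 ratio of 2.13 [2.02, 2.24]. It was the gene of this list called past 1.5, beside 2.71% of all genes tested called higher. Its transcript level does not show whether the enzyme makes NADPH or NADH. Nadk, the cytosolic NAD kinase that makes NADP, had 4594 and 5480 reads and a ratio of 0.48 [0.43, 0.54]. Nadk2, the mitochondrial NAD kinase, had 864 and 421 reads and a ratio of −0.81 [−0.98, −0.64]. Aldh1l1, a cytosolic folate dehydrogenase that makes NADPH, had 3170 and 1805 reads and a ratio of −0.58 [−0.67, −0.50].

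Enzymes at the entry and the sides of the pathway lay on both sides of 0. Of 11 genes tested, 4 intervals were above 0 and 7 below (34.0% and 34.6% of all genes), with a median log2 ratio of −0.30. Hk2, a hexokinase that makes glucose 6-phosphate, had 544 control reads, 1122 senescent reads and a log2 ratio of 1.27 [1.12, 1.42]. Pfkl, the liver phosphofructokinase that draws sugar phosphate down glycolysis, had 5085 and 1701 reads, a ratio of −1.35 [−1.43, −1.27]. Shpk, which makes sedoheptulose 7-phosphate, a sugar of the non-oxidative branch, had 270 and 100 reads, a ratio of −1.20 [−1.55, −0.87]. Pgm2, a phosphomutase that acts on ribose phosphates, had 1379 and 2130 reads and a ratio of 0.86 [0.76, 0.96].

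Genes that use ribose 5-phosphate, in the synthesis of nucleotides, had a median log2 ratio of 0.19 over 18 genes. Intervals of 11 lay above 0 and of 5 below (34.0% and 34.6% of all genes). Pfas and Ppat, enzymes of purine synthesis, had ratios of 0.79 [0.68, 0.89] and 0.71 [0.62, 0.80]. Tyms, thymidylate synthase, and Rrm1, a subunit of ribonucleotide reductase, both of which serve DNA synthesis, had ratios of −1.01 [−1.15, −0.87] and −0.72 [−0.79, −0.64]. In the same libraries the 8 proliferation markers had a median of −0.16, with 2 intervals above 0 (Top2a and Cdk1), 4 below (Mki67, Pcna, Mcm5 and Ccna2) and 2 that held 0. Mki67 had the lowest ratio, −0.79 [−0.88, −0.71], and Cdk1 the highest, 0.19 [0.06, 0.31]. Their part in the nucleotide genes was not tested.

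Reductases that use NADPH had a median log2 ratio of −0.08 over 13 genes. Intervals of 3 lay above 0 and of 8 below (34.0% and 34.6% of all genes). Txnrd1, cytosolic thioredoxin reductase, had 4905 control and 10421 senescent reads and a log2 ratio of 1.32 [1.27, 1.37]. Gsr, glutathione reductase, which was named after its values were seen, had 5928 and 8294 reads and a ratio of 0.71 [0.67, 0.76]. Nox4, an oxidase that makes hydrogen peroxide from NADPH and oxygen, had 1000 and 308 reads and a ratio of −1.47 [−1.66, −1.28]. Akr1b3, an aldose reductase, and Cbr1, a carbonyl reductase, were 0.539-fold and 0.544-fold of the control.

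**Figure D4:**
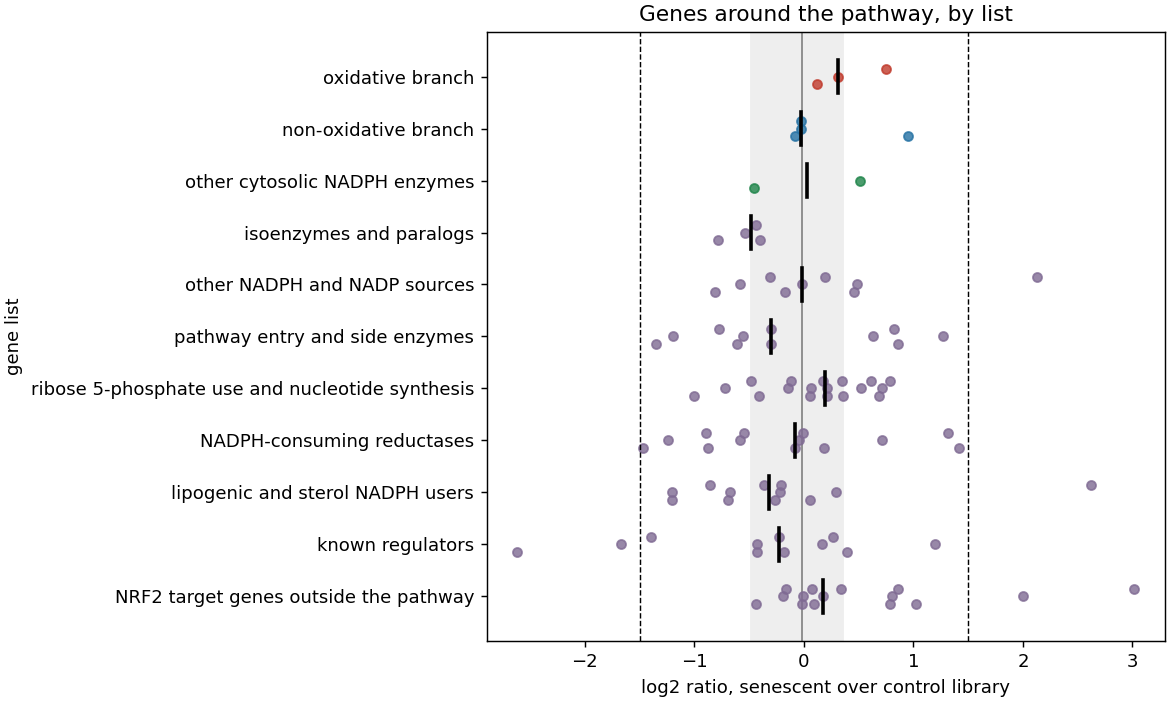
Log2 ratio of senescent over control for each gene with at least 10 reads in the 3 groups of the pathway (coloured) and in 8 lists of genes around it (purple), with black bars at the list medians, the grey line and band at the median and quartiles of all genes tested (−0.02, −0.48 and 0.35), and dashed lines at a log2 ratio of 1.5 in either direction. The oxidative branch has its median at 0.31 and the isoenzymes theirs at −0.48.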

How the data were processed

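RNAseq libraries from control and H2O2-treated AML12 cells, 1 per condition and each from RNA of 3 samples, were compared. The authors deposited un-normalized read counts per Ensembl gene. The submitters' processing notes name CASAVA, STAR, edgeR, DESeq2 and the build mm10, and the counting tool and strand setting are not given in the sources used here. Each count column carries the initial of a sample title and was matched by it, and 34490 of 35275 genes (97.8%) had a symbol.

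Counts were scaled by TMM in edgeR 4.0.16 (R 4.3.3; control factor 1.04, senescent factor 0.964). Ratios, Clopper-Pearson and Poisson intervals were computed with Python 3.11.15 and scipy 1.17.1, after tests on simulated data. A gene was called past a log2 ratio of 1.5 with at least 10 reads over both libraries and a 95% interval without 0. Differences between genes are conditional odds ratios. Positions and union exon lengths came from GENCODE M21 on GRCm38, copies from blastn 2.17.0, and promoter windows from RefSeq on GRCm38.p6. Alternatives were total-count, upper-quartile and DESeq2 1.42.0 scaling, other prior counts, filters and thresholds, and lowess trends (statsmodels 0.14.6). Widened intervals were also used for the counts of calls, and transcript lengths for the levels. The widened interval of each gene, transcript lengths for the branch shares, the NADPH shares and the level of Pgd over G6pdx, CPM for the last, and the tallies of intervals and of 1.5-fold changes under each scaling were added after seeing the data.

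The 9 genes and the 8 surrounding lists were chosen with earlier results of these data known. All 9 genes, the isoenzymes and the regulators are named, and of each other list the 4 genes with the largest log2 ratios in either direction among those with at least 100 reads. One library per condition allows neither the edgeR nor the DESeq2 test.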

Additional observations from a re-analysis of the deposited data

How the results depend on the processing

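The median log2 ratio of the 9 genes was 0.12, and 0.015 under scaling by total counts, which put the median of all genes at −0.12. That scaling lowered all 9 log2 ratios by 0.11 and turned the sign of none. At a 1.5-fold change 2 genes were higher, also under total-count, DESeq2 and upper-quartile scaling. Of the 93 genes tested in the surrounding lists, 4 were higher past a log2 ratio of 1.5 (Mthfd2, Abcc2, Slc7a11 and Thrsp, the last with 1 control and 10 senescent reads) and 2 lower (Mlxipl and Thrb), beside 2.71% and 5.6% of all genes tested. Past a log2 ratio of 1 these counts were 9 and 10 (5.09% and 9.98% of all genes), and at a 1.5-fold change 20 and 19 (12% and 18%). Removing the trend of the ratios on exon length turned Rpe (to 0.06) and Taldo1 (to 0.05) above 0, and removing that on GC content turned Rpe (to 0.07) and Tkt (to 0.02) above 0. The cause was not tested. Upper-quartile and DESeq2 scaling turned the sign of none of the 9 ratios. Filters of 1 and 100 reads could not change their median, since the gene with the fewest reads, Rpia, had 911. At such read counts a prior count has little weight, and the smaller and larger ones shifted the ratios by −0.0086 to 0.0019. No paired analysis was possible because each condition had 1 library. With RNA of 3 samples pooled in it, the spread between cultures is unknown, and it limits the ratios of G6pdx, Pgls, Rpe, Tkt and Taldo1 most, whose intervals held 0 at an assumed coefficient of variation of 0.1.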

Other observations

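The lipogenic and sterol genes had a median log2 ratio of −0.31 over 12 genes, and not all of them encode enzymes that spend NADPH. Intervals of 2 lay above 0 and of 9 below (34.0% and 34.6% of all genes). Scd1 and Scd2, desaturases of fatty acids, had log2 ratios of −1.21 [−1.28, −1.14] and −0.69 [−0.71, −0.67], Elovl6, a fatty acid elongase, −0.86 [−0.97, −0.75], and Dhcr7, the last reductase of cholesterol synthesis, −1.21 [−1.35, −1.07]. Fasn, fatty acid synthase, which was named after its values were seen, had 12274 control and 12816 senescent reads and a ratio of 0.29 [0.26, 0.33].

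Of the 11 known regulators of the pathway, 4 intervals lay above 0 and 7 below (34.0% and 34.6% of all genes). The median log2 ratio was −0.23. Mlxipl, which encodes ChREBP, had 587 control and 81 senescent reads and a ratio of −2.61 [−2.98, −2.29], and Thrb, a thyroid hormone receptor, had 270 and 72 reads and a ratio of −1.66 [−2.07, −1.30]. These were the regulators called past 1.5, beside 5.6% of all genes tested called lower and 2.71% called higher. Tfeb, a regulator of lysosomal genes, had a ratio of −1.39 [−1.66, −1.14] and Myc one of 1.20 [1.12, 1.27]. Nfe2l2, which encodes NRF2, had a ratio of −0.23 [−0.29, −0.17], and Keap1, its inhibitor, one of −0.43 [−0.52, −0.34]. Srebf1, the lipogenic factor, had a ratio of −0.43 [−0.49, −0.37], Bach1, a repressor at antioxidant elements, 0.40 [0.29, 0.51], Mafg 0.16 [0.09, 0.24], Trp53 0.26 [0.21, 0.32] and Thra −0.18 [−0.31, −0.05]. Transcript levels of a regulator do not measure its activity.

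Of 15 known NRF2 target genes outside the pathway, 10 intervals lay above 0 and 3 below (34.0% and 34.6% of all genes). The median log2 ratio was 0.17, beside 0.12 for the 9 pathway genes. Abcc2, an export pump for glutathione conjugates, had 390 control and 2690 senescent reads and a ratio of 3.01 [2.86, 3.17]. Slc7a11, the cystine importer, had 256 and 874 reads and was 3.99-fold higher, with a log2 interval of 1.80 to 2.21. Osgin1 had a ratio of 1.03 [0.95, 1.10] and Gclc, a subunit of the enzyme that starts glutathione synthesis, 0.86 [0.84, 0.88]. Gclm, the other subunit of that enzyme, had a ratio of −0.44 [−0.50, −0.38], the lowest of the list, and the other intervals below 0 were those of Gsta4, −0.19 [−0.28, −0.10], and Abcc3, −0.17 [−0.22, −0.11]. These 3 genes were named after their values were seen.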
